A study of Phaseolus vulgaris with 6 samples.

Results

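Phvul.001G154300 is a gene of common bean (Phaseolus vulgaris) that the deposited table describes as NIMA-related kinase 4. It is 1 of 27012 gene models in that table, and was selected on its own counts in these libraries, being far lower in the mutant nts than in the wild type A18. That difference is therefore described here and not tested. RNA was sequenced from apical stems of A18 and of nts, with 3 samples of each genotype. All plants grew in pots at 25 °C with 14 h of light and 10 h of dark. They were sampled at the first flowering stage, when the mutant stem tips had come to look different, and neither the gene mutated in nts nor its origin is given in the sources used here. Whether replicates were separate plants is not stated, so the p-values reflect no more than the variation among these 6 samples, which may be technical.

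NIMA-related kinases are named after NIMA, a kinase that the fungus Aspergillus nidulans needs to enter mitosis. In plants the family is known mainly for its action on the cortical microtubules that guide cell expansion. In Arabidopsis, NIMA-related kinase 6 binds armadillo repeat kinesins and phosphorylates beta-tubulin, loss of it causes bulges on elongating epidermal cells, and kinases 4 and 5 can form complexes with it.

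Total counts ran from 40728394 to 62695701 per library. A18 replicate 2 and nts replicate 3 stood apart from the other libraries of their genotypes. In a principal component analysis of log2 CPM (log2 counts scaled to library size), the leading component (54.8% of the variance) put them at -36.1 and 40.3. The remaining A18 libraries lay at -112 and -116 on it, and the remaining nts libraries at 122 and 102. For many of the genes named, the change is also given without both of them. They were picked from these same data, and leaving them out lessens the spread within each genotype. EdgeR then called 19.9% of all genes, against 0.0947% with all 6 libraries. An adjusted p from that smaller fit is to be read against that share and is not separate support.

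Phvul.001G154300 lies on chromosome 1 from 40486986 to 40492951 on the plus strand, in the coordinates of the table, whose genome build is not given in the sources used here. The model spans 5966 bases and has 3 annotated transcripts. Its level in FPKM (fragments scaled to transcript length and sequencing depth) was 79.7, 71.4 and 93.7 in A18 replicates 1, 2 and 3. In nts replicates 1, 2 and 3 it was 0.804, 2.36 and 1.04 FPKM. The genotypes lay far apart: the lowest A18 library was 30.3-fold above the highest nts library, and the means of 81.6 ± 11.3 and 1.40 ± 0.838 FPKM (SD, n = 3) differed 58.2-fold. The mutant thus held 1.72% of the wild-type mean.

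The underlying counts were 10650, 6703 and 11008 in A18 and 108, 306 and 110 in nts, so the nts level was low but above 0 in every library. The edgeR log2 change was -5.79, and it ran from -6.34 to -5.15 over the 14 alternative settings tried. The relative spread differed between genotypes. The coefficient of variation was 13.8% in A18, with a 1.31-fold range, and 59.8% in nts, with a 2.94-fold range in which replicate 2 was the high library. Among the 23339 gene models with counts in any library, 90.3% had a lower mean FPKM than Phvul.001G154300 in A18, and 22.5% did in nts. Of 16015 tested genes with a mean of at least 5 FPKM in the higher genotype, 70 had a log2 change further below 0.

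The libraries that stood apart did not do so for this gene. With the mean log2 CPM of A18 replicates 1 and 3 set at 0% and that of nts replicates 1 and 2 at 100%, A18 replicate 2 lay at 1.23% and nts replicate 3 at 106%. Without both of these libraries the log2 change was -5.69. The gene was selected on these same counts, so the positions only describe it and are not separate support.

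A search for NIMA or "never in mitosis" in the descriptions found 9 genes. Of these 6 carry the words NIMA-related: the kinases 4 (Phvul.001G154300 and Phvul.007G174200), 2 (Phvul.006G100400 and Phvul.007G186800) and 5 (Phvul.001G137000 and Phvul.007G255900). Another 2, Phvul.005G120700 and Phvul.011G098200, are described as NIMA (never in mitosis, gene A)-related 6. The last, Phvul.003G260800, is not a kinase but a peptidylprolyl cis/trans isomerase of the NIMA-interacting type, a class of enzymes that act on phosphorylated proteins. The table gives all 8 kinases the term protein phosphorylation, and 4 of them, Phvul.001G154300 included, the KEGG pathway "Regulation of autophagy". All 9 genes passed the filter on low counts.

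**Figure D1:**
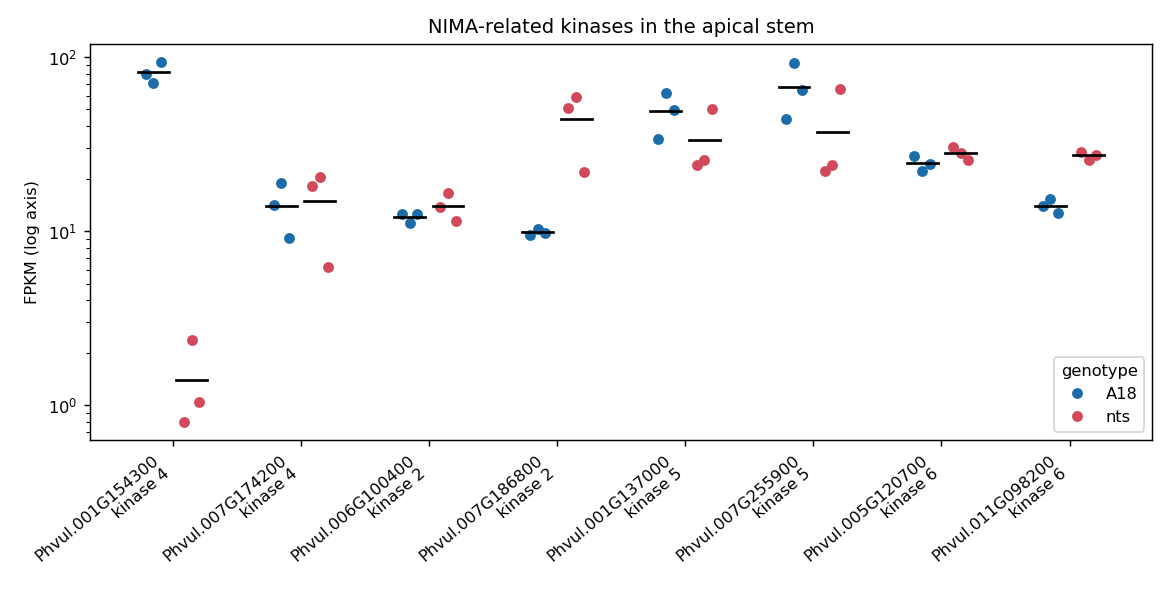
FPKM on a log axis of the 8 NIMA-related kinases in the 3 A18 libraries (blue) and 3 nts libraries (red), each point being 1 library and each black bar the mean. Phvul.001G154300 ran from 71.4 to 93.7 FPKM in A18 and from 0.804 to 2.36 in nts, and 5 of the other 7 kinases had overlapping genotypes.

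In A18, Phvul.001G154300 had the highest mean of the 8 kinases, and in nts the lowest. The A18 order by mean FPKM continued with the kinase 5 genes at 66.9 and 48.8, Phvul.005G120700 at 24.5, Phvul.007G174200 at 14.0, Phvul.011G098200 also at 14.0, Phvul.006G100400 at 12.1 and Phvul.007G186800 at 9.84 FPKM. The A18 ranges of Phvul.001G154300 and Phvul.007G255900 overlapped, so their order is not settled: in A18 replicate 2 Phvul.007G255900 was the higher, at 91.9 FPKM. In nts the order began with Phvul.007G186800 at 43.9 FPKM and ended with Phvul.006G100400 at 13.9 and Phvul.001G154300 at 1.40. In nts each of the genes in places 1 to 5 overlapped in range with the next among them, the fifth was separate from the sixth, and Phvul.001G154300 lay below all other kinases in every nts library.

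The share of Phvul.001G154300 in the summed FPKM of the 8 kinases was 33.9%, 23.5% and 33.9% in A18 and 0.426%, 1.17% and 0.498% in nts. The other 7 kinases summed to 155, 232 and 183 FPKM in A18 and to 188, 200 and 209 in nts. These latter ranges overlapped. The sum over all 8 was 272 ± 34.7 FPKM in A18 and 200.2 ± 10.4 in nts (SD, n = 3).

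**Figure D2:**
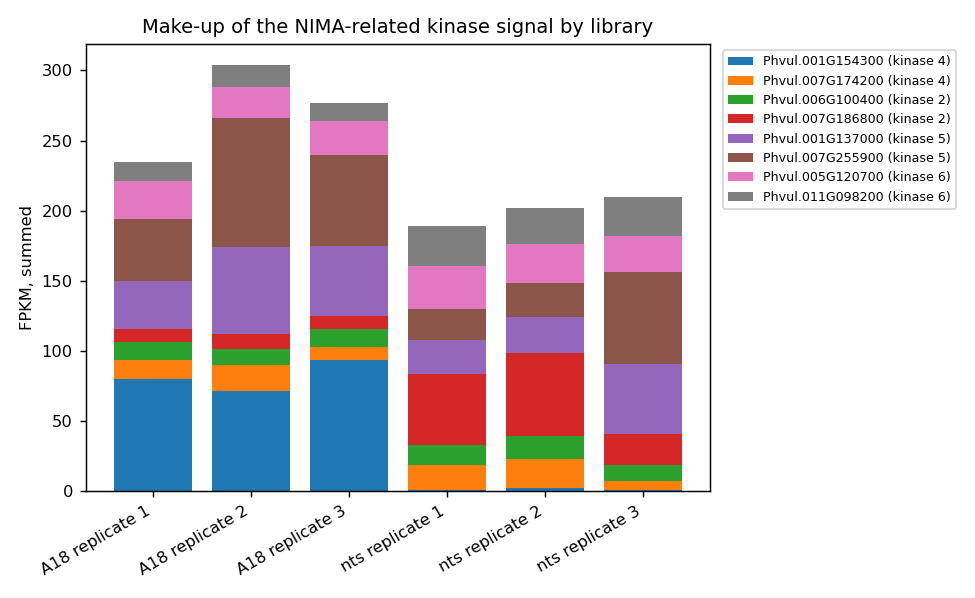
Stacked FPKM of the 8 NIMA-related kinases in each library, with 1 colour per gene. Phvul.001G154300 made up between 23.5% and 33.9% of the sum in A18 and between 0.426% and 1.17% in nts. Phvul.007G186800 took between 3.39% and 4.04% in A18 and between 10.4% and 29.4% in nts. The sum includes Phvul.001G154300, so its low level in nts by itself raises the share of each other kinase there.

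Phvul.007G174200, the second gene described as kinase 4 (chromosome 7, 29224368 to 29230187), did not share the low level in nts. It had 14.0, 18.8 and 9.11 FPKM in A18 and 18.2, 20.5 and 6.23 in nts. The genotypes overlapped, and the lowest value of all came from nts replicate 3. Its log2 change was 0.14 ± 0.50 (SE; edgeR adjusted p = 0.916), a sign that turned under 5 of the 14 alternatives, and 0.84 without A18 replicate 2 and nts replicate 3 (edgeR adjusted p = 0.0722). The ratio of Phvul.001G154300 to Phvul.007G174200 was 5.67, 3.80 and 10.3 in A18 and 0.0442, 0.115 and 0.168 in nts. How reads that match both copies were assigned is not stated in the sources used here.

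The kinase 2 genes included the largest difference among the other family members. Phvul.007G186800 (chromosome 7, 30672878 to 30678450) had 9.49, 10.3 and 9.75 FPKM in A18 and 50.7, 59.3 and 21.8 in nts. Every nts library lay above every A18 library, and nts replicate 3 was the lowest of the mutant libraries. The means were 9.84 ± 0.403 and 43.9 ± 19.7 FPKM (SD, n = 3), and the log2 change of 2.22 ± 0.37 missed the threshold (edgeR adjusted p = 0.0682). Without nts replicate 3 the log2 change was 2.53 (edgeR adjusted p = 0.0172), without A18 replicate 2 as well it was 2.61 (edgeR adjusted p = 0.00382), and with DESeq2 it was 2.21 (adjusted p = 4.98e-06). Over all alternatives the adjusted p ran from 4.98e-06 to 0.258.

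The other kinase 2 gene, Phvul.006G100400 (chromosome 6), had 12.5, 11.2 and 12.5 FPKM in A18 and 13.7, 16.6 and 11.5 in nts, with overlapping genotypes and a log2 change of 0.28 ± 0.18 (edgeR adjusted p = 0.478). The ratio of Phvul.007G186800 to Phvul.006G100400 was 0.760, 0.918 and 0.782 in A18 and 3.70, 3.58 and 1.898 in nts. The higher member of this pair was thus Phvul.006G100400 in all A18 libraries and Phvul.007G186800 in all nts libraries. The mean log2 ratio differed by 1.84 (exact permutation test, two-sided, p = 0.1, the smallest that 3 against 3 samples allow).

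The kinase 6 genes, named like the Arabidopsis kinase that acts on beta-tubulin, had levels closer to each other in nts than in A18. Phvul.011G098200 (chromosome 11, 10129508 to 10135494) had 13.9, 15.2 and 12.7 FPKM in A18 and 28.6, 25.5 and 27.5 in nts. The mutant libraries all lay above the wild-type ones, and nts replicate 3 stood with the other nts libraries. The log2 change was 1.03 ± 0.19 (edgeR adjusted p = 0.0762), 1.20 without A18 replicate 2 (edgeR adjusted p = 0.0318) and 1.12 without nts replicate 3 as well (edgeR adjusted p = 0.0153). With DESeq2 it was 1.02 (adjusted p = 0.000144), and over all alternatives the adjusted p ran from 0.000144 to 0.287.

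Phvul.005G120700 (chromosome 5) had 27.0, 22.2 and 24.3 FPKM in A18 and 30.6, 28.1 and 25.6 in nts, overlapping, with a log2 change of 0.28 ± 0.16 (edgeR adjusted p = 0.427). It was the higher kinase 6 gene in every A18 library, by 1.94-, 1.46- and 1.91-fold. In nts the ratio of Phvul.005G120700 to Phvul.011G098200 was 1.07, 1.10 and 0.931. The mean log2 ratio was 0.77 lower in nts (0.81 ± 0.23 in A18 and 0.04 ± 0.13 in nts, SD, n = 3; exact permutation test, two-sided, p = 0.1).

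The kinase 5 genes were highest in the libraries that stood apart. Phvul.007G255900 (chromosome 7) had 44.2, 91.9 and 64.7 FPKM in A18 and 22.3, 24.1 and 65.7 in nts. Phvul.001G137000, on chromosome 1 like Phvul.001G154300, had 33.9, 62.6 and 49.8 FPKM in A18 and 24.1, 25.7 and 50.1 in nts. For both, A18 replicate 2 and nts replicate 3 were the highest of all 6 libraries. The log2 changes were -0.78 ± 0.54 and -0.49 ± 0.41 (edgeR adjusted p = 0.504 and 0.582). Without those libraries that of Phvul.007G255900 was -1.13 and passed the threshold (edgeR adjusted p = 0.0353), in a fit that called 19.9% of all genes. That of Phvul.001G137000 was then -0.65 (edgeR adjusted p = 0.113). The mean log2 ratio of Phvul.007G255900 to Phvul.001G137000 was 0.38 lower in nts (exact permutation test, two-sided, p = 0.3). Over the 3 pairs tested in this way the adjusted p was 0.15 for kinases 2 and 6 and 0.3 for kinase 5.

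Phvul.003G260800, the isomerase, had 248, 188 and 216 FPKM in A18 and 234, 241 and 232 in nts, with a log2 change of 0.20 ± 0.16 (edgeR adjusted p = 0.565). Of the 8 family genes other than Phvul.001G154300, edgeR called 0 at an adjusted p under 0.05, against 0.0947% of the 21126 genes tested (0.0615% lower and 0.0331% higher). At an unadjusted p under 0.05 there were 2 higher and 0 lower, where 8.39% and 9.58% of all genes were. Without overlap between genotypes there were 2 higher and 0 lower, against 10.0% and 14.3% of all genes, or 24.3% in either direction. DESeq2 called 2, against 11.4% of all genes. Limma called 2 with sample quality weights (24.1% of all genes), 1 on log2(FPKM + 0.1) and 0 on log2(FPKM + 1), where it called 2.13% and 2.07%. Without A18 replicate 2 and nts replicate 3, edgeR called 3, against 19.9% of all genes. The study's own criteria (log2 change of 2 or more up or down, with an unadjusted p no higher than 0.05) were met by 1 that was higher, Phvul.007G186800, and by 0 that were lower. Of all genes 2.06% met them as higher and 3.37% as lower, 5.43% together.

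The tested genes around Phvul.001G154300 did not share its low level in nts. The 10 gene models on each side span 40325667 to 40629809 on chromosome 1, and 15 of these 20 had enough counts to be tested. None of the 15 was called by edgeR, by DESeq2 or under any other alternative tried. Their log2 changes ran from -1.02 to 0.50 with a median of -0.01, 14 of the 15 were within 1 of 0, and 1 did not overlap between genotypes. Over all genes edgeR called 0.0947% and 24.3% did not overlap, so a count of 0 called among 15 is near the background. A single neighbour had an unadjusted p under 0.05, Phvul.001G154800, an indeterminate-domain 12 gene of the zinc finger family (edgeR log2 change -1.02 ± 0.40, adjusted p = 0.253), which was chosen after its value was seen.

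The gene model directly before is Phvul.001G154200, a sulfate transporter 3;1, which ends 44441 bases away. It had 23.6, 9.27 and 13.1 FPKM in A18 and 13.7, 12.3 and 22.4 in nts (edgeR log2 change 0.18 ± 0.38, adjusted p = 0.843). Directly after, with 15443 bases between them, is Phvul.001G154400, of unknown function, with 5.35, 2.96 and 4.22 FPKM in A18 and 3.84, 7.80 and 3.81 in nts (edgeR log2 change 0.39 ± 0.37, adjusted p = 0.633). No gene model in the table overlaps Phvul.001G154300. Of the 5 neighbours that could not be tested, 2 had 0 counts in all libraries. Among the other 3, Phvul.001G153600 had 22, 47 and 4 counts in A18 and 0 in the 3 nts libraries. Phvul.001G155100 had 3, 0 and 1 counts in A18 and 0, 0 and 18 in nts. Phvul.001G154901 had 8, 0 and 0 counts in A18 and 5, 0 and 0 in nts.

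**Figure D3:**
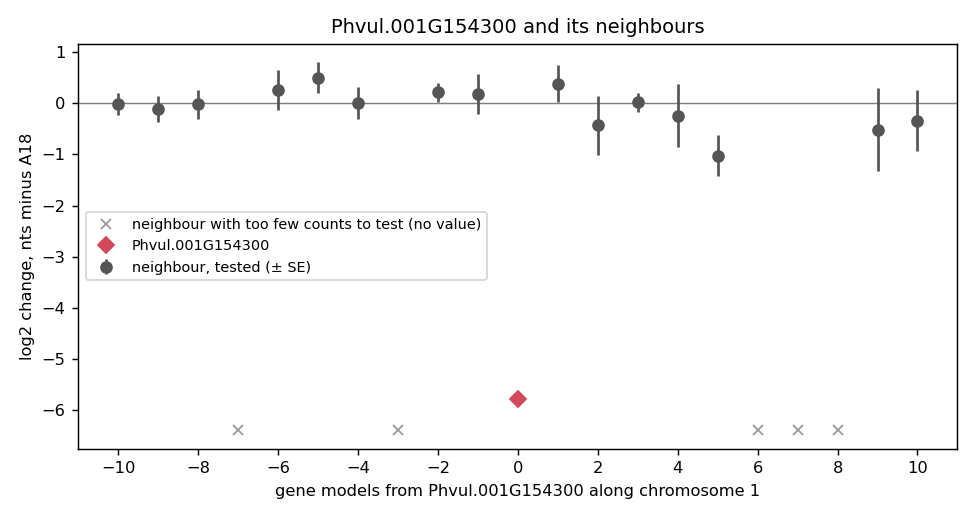
The log2 change (nts minus A18, edgeR) of Phvul.001G154300 (red diamond) and of the 10 gene models on each side, by their order on chromosome 1, with SE bars for the tested neighbours and crosses along the bottom for those too low to test. The tested neighbours lay between -1.02 and 0.50, and Phvul.001G154300 at -5.79.

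Microtubule genes, the setting in which the family is known to act, were examined by words in their descriptions. Tubulins are the building blocks of microtubules. The 19 genes found by the word tubulin also include a gamma-tubulin, a gamma-tubulin complex protein and genes described as Tubulin/FtsZ family. Of these 19 genes 18 were tested, and edgeR called 0, against 0.0947% of all genes, so this count is near the background. Without overlap between genotypes 5 were higher and 1 lower, against 10.0% and 14.3% of all genes. At an unadjusted p under 0.05, 4 were higher and 1 lower, where 8.39% and 9.58% of all genes were. DESeq2 called 3 (11.4% of all genes), limma with quality weights 7 (24.1%), and limma on either FPKM scale 0 (2.07% and 2.13%). The median log2 change was 0.39, against 0.00 over all genes. The most abundant member, the alpha-2 chain gene Phvul.009G114100, had 2223, 5612 and 3729 FPKM in A18 and 1341, 1225 and 2604 in nts (edgeR log2 change -1.11 ± 0.53, adjusted p = 0.339). The alpha-4 chain gene Phvul.007G047300 had 779, 1341 and 1478 FPKM in A18 and 875, 878 and 909 in nts, with overlapping genotypes. Alpha-5 tubulin, Phvul.002G237400, had 512, 697 and 451 FPKM in A18 and 1424, 1285 and 1162 in nts, without overlap (edgeR log2 change 1.28 ± 0.32, adjusted p = 0.126; 1.60 without A18 replicate 2 and nts replicate 3, adjusted p = 0.0174).

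Kinesins, the motors that move along microtubules and include the partners of the Arabidopsis kinase 6, had log2 changes of both signs. Of 40 genes 36 were tested and 0 called by edgeR, against 0.0947% of all genes. At an unadjusted p under 0.05, 6 were higher and 5 lower (8.39% and 9.58% of all genes). Without overlap between genotypes 5 were higher and 7 lower (10.0% and 14.3% of all genes). DESeq2 called 7 (11.4% of all genes), limma with quality weights 12 (24.1%) and limma on either FPKM scale 1 (2.07% and 2.13%), and the median log2 change was 0.19. The study's own criteria were met by 1, Phvul.002G111200, a microtubule motor protein named after its value was seen, and it was higher. It had 9.05, 9.75 and 8.74 FPKM in A18 and 42.8, 37.8 and 27.4 in nts, without overlap (edgeR log2 change 2.04 ± 0.23, adjusted p = 0.0541; 2.28 without A18 replicate 2 and nts replicate 3, adjusted p = 0.00539). The 3 most abundant were the kinesin 3 genes Phvul.011G141500 and Phvul.005G090700 and a microtubule motor protein, Phvul.011G038800. Phvul.005G090700 had 62.8, 72.6 and 50.6 FPKM in A18 and 23.6, 28.3 and 34.2 in nts, and Phvul.011G038800 had 69.0, 121 and 75.6 and then 25.1, 25.5 and 45.7, neither with overlap (edgeR adjusted p = 0.125 and 0.152). Without A18 replicate 2 and nts replicate 3 their log2 changes were -1.03 and -1.41 (edgeR adjusted p = 0.0236 and 0.0102). Phvul.011G141500 had 43.8, 119 and 51.6 FPKM in A18 and 30.1, 30.8 and 95.3 in nts, overlapping, and was highest in the libraries that stood apart. Its log2 change was -0.41 ± 0.65 (edgeR adjusted p = 0.784) and -0.55 without them (edgeR adjusted p = 0.0796). Armadillo repeat kinesins, named for their role beside kinase 6 and chosen after their values were seen, had log2 changes of -0.63 ± 0.20 for Phvul.002G151700 and 0.16 ± 0.38 for Phvul.008G075500 (edgeR adjusted p = 0.174 and 0.867), and -0.85 and 0.18 without A18 replicate 2 and nts replicate 3 (edgeR adjusted p = 0.0328 and 0.445). The third, Phvul.003G216300, was too low to test.

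Other microtubule-associated genes, which bundle, anchor or stabilise microtubules, gave 39 tested of 41. EdgeR called 0, against 0.0947% of all genes. At an unadjusted p under 0.05, 3 were higher and 5 lower (8.39% and 9.58% of all genes). Without overlap between genotypes 6 were higher and 8 lower (10.0% and 14.3% of all genes). DESeq2 called 6 (11.4% of all genes), limma with quality weights 14 (24.1%) and limma on either FPKM scale 1 (2.07% and 2.13%). The median log2 change was 0.11. The most abundant, the SPIRAL1-like1 gene Phvul.004G038000, of a family that keeps cortical arrays aligned in Arabidopsis, had 532, 514 and 396 FPKM in A18 and 1262, 1218 and 803 in nts (edgeR log2 change 1.25 ± 0.28, adjusted p = 0.103; 1.52 without A18 replicate 2 and nts replicate 3, adjusted p = 0.0164). Its relative Phvul.003G041500 had 387, 436 and 374 FPKM in A18 and 549, 489 and 427 in nts, overlapping. The TPX2 family gene Phvul.001G227700 had 190, 507 and 152 FPKM in A18 and 80.9, 48.9 and 547 in nts, its highest values again in A18 replicate 2 and nts replicate 3. Its log2 change was -0.28 ± 1.001 (edgeR adjusted p = 0.916) and -1.29 without those libraries (edgeR adjusted p = 0.0467).

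Past the study's own criteria in this list were 2 genes, both lower and named after their values were seen. Phvul.006G140300, of the MAP70-5 type known from secondary wall thickenings of xylem cells, had 200.2, 2.23 and 92.1 FPKM in A18 and 0.720, 0.766 and 0.422 in nts (edgeR log2 change -7.11 ± 1.51, adjusted p = 0.0962; -7.50 without A18 replicate 2 and nts replicate 3, adjusted p = 0.00489). For this gene A18 replicate 2 lay nearer to the mutant libraries than to the other A18 libraries, whereas Phvul.001G154300 had 71.4 FPKM there. The MAP65-8 gene Phvul.001G261200, of a family that cross-links microtubules, had 19.1, 37.8 and 22.3 FPKM in A18 and 4.03, 5.17 and 6.11 in nts (edgeR log2 change -2.32 ± 0.38, adjusted p = 0.0663; -2.07 without those libraries, adjusted p = 0.00833).

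Mitotic genes were examined because NIMA itself acts in mitosis. Their median log2 change was 0.47, with 19 of 21 above 0, where 10602 of all 21126 genes were. Most of the 21 were lowest within their genotype in A18 replicate 2 and nts replicate 3, so their signs are not independent of each other. Without overlap between genotypes 1 was higher and 0 lower, against 10.0% and 14.3% of all genes. EdgeR called 0, against 0.0947% of all genes, and 1 was higher and 0 lower at an unadjusted p under 0.05 (8.39% and 9.58%). DESeq2 called 1 (11.4% of all genes), limma with quality weights 1 (24.1%) and limma on either FPKM scale 0 (2.07% and 2.13%). Cyclin-dependent kinase B2;2 (Phvul.001G000500), a kinase of dividing cells, had 59.6, 16.8 and 33.5 FPKM in A18 and 51.8, 83.8 and 18.2 in nts. The aurora kinase gene Phvul.009G112600, which belongs to the spindle machinery, had 38.5, 17.3 and 22.1 FPKM in A18 and 34.8, 46.4 and 14.5 in nts. Both overlapped between genotypes and were lowest within their genotype in A18 replicate 2 and nts replicate 3. Their log2 changes were 0.58 ± 0.60 and 0.38 ± 0.45 (edgeR adjusted p = 0.665 and 0.707), and 0.64 and 0.52 without those libraries (edgeR adjusted p = 0.256 and 0.282). The mitotic-like cyclin 3B gene Phvul.001G055400 had 16.6, 21.7 and 10.5 FPKM in A18 and 38.7, 38.7 and 32.9 in nts, without overlap (edgeR log2 change 1.23 ± 0.32, adjusted p = 0.134; 1.62 without those libraries, adjusted p = 0.0189).

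**Figure D4:**
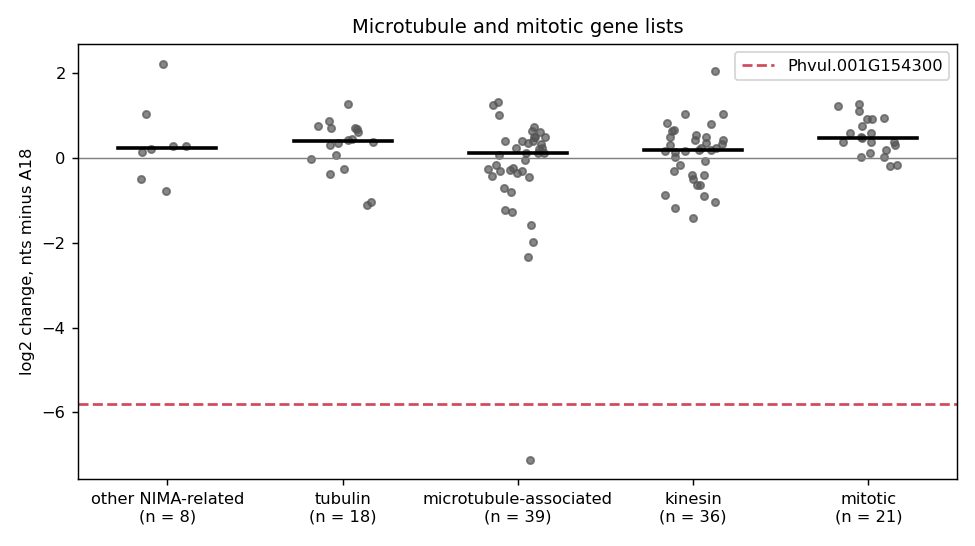
The log2 change (nts minus A18, edgeR) of each tested gene, by list, with the median as a black bar and Phvul.001G154300 at -5.79 as a dashed line. Medians lay between 0.11 and 0.47, and the single point below the dashed line is Phvul.006G140300.

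The 5 genes whose pattern over the 6 libraries was most like that of Phvul.001G154300 were sought among 13793 described genes with a mean of at least 5 FPKM in the higher genotype. Likeness was the root mean square difference in log2 CPM after centring each gene on its own mean, and its median over these genes was 3.01. Log2 CPM was taken with a prior count of 3, which largely sets the level of a gene at or near 0 counts. Closest was Phvul.003G048300, a PLC-like phosphodiesterase, at 0.628. It had 8.03, 6.73 and 8.88 FPKM in A18 and 0.147, 0.150 and 0.212 in nts.

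Next came a leucine-rich repeat protein (Phvul.011G115300) at 0.653, pinoresinol reductase 1 (Phvul.002G132300), an enzyme of lignan synthesis, at 0.806, an integrase-type DNA-binding protein (Phvul.001G187100) at 0.811 and MYB85 (Phvul.003G214300), a secondary wall transcription factor in Arabidopsis, at 0.885. These varied more within A18: Phvul.011G115300 had 32.9, 22.5 and 85.8 FPKM there, and Phvul.003G214300 25.9, 9.88 and 29.9. Pinoresinol reductase 1 was listed at 0 in all 3 nts libraries, and Phvul.001G187100 had 0, 0 and 4 counts there. Their likeness in nts thus rests largely on the prior count. Their edgeR log2 changes were -11.3 and -6.78, against -5.79 for Phvul.001G154300. Phvul.007G174200, the other kinase 4 gene, ranked 8101 by the same measure.

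**Figure D5:**
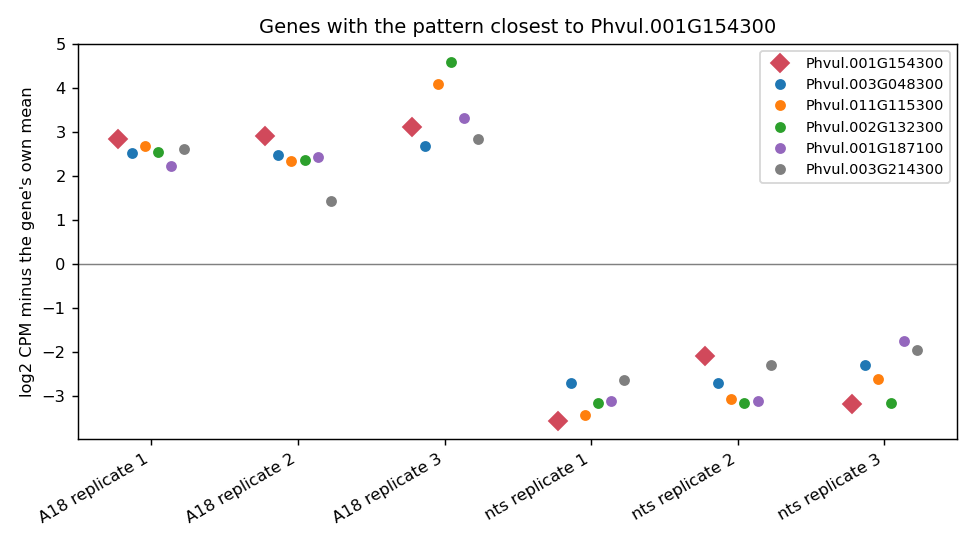
Log2 CPM minus the gene's own mean in each library for Phvul.001G154300 (red diamonds) and the 5 genes closest to it (circles). All 6 genes lay above 0 in every A18 library and below 0 in every nts library, with the widest scatter in A18 replicate 3.

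Levels of cell type markers were compared as well, and their part in the level of Phvul.001G154300 was not tested. In bulk stems, fewer cells of a type and less RNA per cell cannot be told apart. Of 31 secondary wall genes of xylem and fibres 30 were tested, 22 were lower in nts without overlap and 0 higher, against 14.3% and 10.0% of all genes. EdgeR called 1 as lower, against 0.0615% of all genes, and 3 had 0 counts in all nts libraries. The study's own criteria were met by 21 as lower and 0 as higher (3.37% and 2.06% of all genes). Their summed level was 9709, 5939 and 8539 FPKM in A18 and 1141, 478 and 2479 in nts. Without A18 replicate 2 and nts replicate 3 these sums leave 8539 and 9709 FPKM in A18 and 478 and 1141 in nts. Among the mutant libraries the sum was highest in replicate 3, where Phvul.001G154300 stood at 1.04 FPKM, between the values of the others. Most of the 31 are FASCICLIN-like arabinogalactan-protein 11 or 12 genes, many of them on chromosome 11, so counts and sums rest mainly on that family. Most laccase genes in the list overlapped between genotypes. So did the cellulose synthase A4 gene Phvul.002G188600 (edgeR log2 change 0.21, adjusted p = 0.947), whereas the other cellulose synthase A4 genes were lower without overlap.

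Epidermal markers, 14 genes of which 7 had 0 counts everywhere, summed to 8.40, 7.16 and 6.29 FPKM in A18 and to 232, 690 and 7.97 in nts, so that nts replicate 3 lay within the A18 range. Most of the sum in nts replicates 1 and 2 came from the protodermal factor 1 genes Phvul.006G033900 and Phvul.008G190900. They had 74.6 and 351 FPKM, and 149.7 and 323.9 FPKM, in those libraries. The homeodomain GLABROUS 2 gene Phvul.005G114600 overlapped, with 7.25, 2.94 and 4.76 FPKM in A18 and 3.685, 7.69 and 3.04 in nts. Of the 6 epidermal genes tested, 3 were higher in nts without overlap and 0 lower, against 10.0% and 14.3% of all genes. The study's own criteria were met by 4 as higher (2.06% of all genes), and edgeR called 0 (0.0947% of all genes). Photosynthetic markers (80 genes) summed to between 16700 and 30940 FPKM in A18 and between 29290 and 32150 in nts, overlapping. Of the 72 tested, 18 were higher in nts without overlap and 1 lower (10.0% and 14.3% of all genes), with a median log2 change of 0.40. None of these 72 was called by edgeR (0.0947% of all genes). Phloem markers (15 genes, all tested) summed to between 602 and 893 FPKM in A18 and between 765 and 887 in nts. Of them 1 was higher and 4 lower without overlap (10.0% and 14.3% of all genes), and edgeR called 0 (0.0947% of all genes).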

How the data were processed

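The members and gene lists were chosen with earlier results of these data known. Raw counts and FPKM per gene were made and deposited by the authors in a single table, per the file headers. Per the submitters' processing notes, cutadapt 1.9 and FastQC were used. For the aligner, counter, strand setting, genome build and annotation: not given in the sources used here. Genes with 0 counts stand at 0.0001 FPKM in the deposited table and were set to 0. Among counts from 1 to 39, between 29.8% and 33.0% per library were divisible by 4 (23.1% of those whole numbers are), so a count need not be a single fragment. All per-sample columns were used. The RefSeq table matched 0 identifiers, and no sequence was used.

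Counts were tested with edgeR 4.0.16 in R 4.3.3 (quasi-likelihood F test, robust; TMM; filterByExpr), with genotype as the only term and Benjamini-Hochberg adjustment over 21126 tested genes. Log2 changes are nts minus A18. Their SE (the size of the change over the root of F) restates the test. The procedure was tested on simulated data. No library duplicated another (chi-square per gene at least 136 within a genotype). Alternatives were DESeq2 1.42.0, limma 3.58.1 (voom with quality weights, or log2 of FPKM plus 1 or 0.1), RLE factors, no filter, a replicate block, and libraries left out. Ratios of paired copies were compared with exact permutation tests (scipy 1.17.1).

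Genes were named by rule: all NIMA genes, the called members of each list (up to 3) or else its 3 with the highest mean FPKM, the adjacent genes and any called one among the 10 on each side, and the 5 closest in pattern. Depth ranged from 40728394 to 62695701 counts per library.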

Additional observations from a re-analysis of the deposited data

How the results depend on the processing

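The log2 change of Phvul.001G154300 stayed below 0 under all 14 alternatives. It was -5.15 on log2(FPKM + 1), a scale that shrinks low values, and ran from -6.34 (without nts replicate 2, its highest mutant library) to -5.49 when libraries were left out in turn. The number of genes called over the whole table was 20, and 0 to 964 when libraries were left out in turn: 0 without nts replicate 1 and without A18 replicate 1 or 3, 1 without nts replicate 2, 945 without A18 replicate 2 and 964 without nts replicate 3. It was 4267 (19.9% of tested genes) without both of the latter, 2395 (11.4%) with DESeq2 and 5087 (24.1%) with limma and quality weights. Limma called 438 (2.07%) on log2(FPKM + 1) and 450 (2.13%) on log2(FPKM + 0.1), and edgeR with no filter called 37. For genes other than Phvul.001G154300 in each list, edgeR called 0 with all libraries. Counts called under DESeq2, under quality weights and without A18 replicate 2 and nts replicate 3 follow, against 11.4%, 24.1% and 19.9% of all genes. They were 2, 2 and 3 for NIMA-related genes, 3, 7 and 4 for tubulins and 6, 14 and 10 for microtubule-associated genes. Kinesins gave 7, 12 and 9, and mitotic genes 1, 1 and 4. On log2(FPKM + 0.1) 1 NIMA-related, 1 microtubule-associated and 1 kinesin gene were called (2.13% of all genes). On log2(FPKM + 1) it was 1 microtubule-associated and 1 kinesin gene (2.07% of all genes), and with no filter 1 kinesin (37 genes in the whole table). Leaving out libraries in turn gave 0 to 1 for NIMA-related genes, tubulins, kinesins and mitotic genes and 0 to 6 for microtubule-associated genes. Without A18 replicate 2 alone the latter gave 4 and the 4 other lists 1 each, where 945 genes of the whole table were called. Without nts replicate 3 alone microtubule-associated genes gave 6, NIMA-related genes and kinesins 1 each, and tubulins and mitotic genes 0. That fit called 964 genes of the whole table. Leaving out any other library gave 0 in each list. Neighbouring genes gave 0 throughout. The log2 change of Phvul.007G174200 turned to -0.11 without A18 replicate 3, -0.01 without nts replicate 1, -0.11 without nts replicate 2, -0.02 on log2(FPKM + 0.1) and -0.0055 on log2(FPKM + 1), and was 0.84 without A18 replicate 2 and nts replicate 3. The causes were not tested.

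The replicate numbers are shared between genotypes, but same-numbered samples did not deviate together (r = -0.016, -0.13 and 0.039 across genes). With a replicate block, which leaves fewer residual degrees of freedom, 0 genes were called over the whole table and 0 in each list, and the log2 change of Phvul.001G154300 was -5.93. No A18 sample was closest to its own number: A18 replicates 1 and 3 correlated best with nts replicate 2, and A18 replicate 2 with nts replicate 1. The lowest count of a kinase was 108, in nts replicate 1, and since a count need not be a single fragment its counting error is not known. Leaving out A18 replicate 2 and nts replicate 3 changed the counts of calls as given above, and left the log2 change of Phvul.001G154300 at -5.69.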
